A study of Mus musculus with 451 samples.

Results

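The genes examined here encode 10 secreted proteins of the tendon matrix: periostin (Postn), transforming growth factor beta-induced protein (Tgfbi), tenascin C (Tnc), tenascin XB (Tnxb), SPARC (Sparc), SPARC-like 1 (Sparcl1), fibronectin (Fn1), SMOC2 (Smoc2), nidogen 1 (Nid1) and follistatin-like 1 (Fstl1). They were chosen by name, with earlier results of these data known, among them the change of Postn described here. All 10 were among the 48795 gene symbols of the deposited table, of which 25841 had a read. Their level was compared between the genotypes in 2 classes of single tail tendon cells. In cells with high Tnmd and Fmod, the level of Postn was 3.94-fold higher in Mkx-/- than in wild-type (WT) cells, whereas in the other cells it was slightly lower in Mkx-/-. Fn1, Smoc2, Tnc and Tgfbi had a higher level in Mkx-/- cells of both classes, by 1.32- to 4.92-fold, as did 34.7% of the 7849 genes with enough reads in both. Of these 4, Fn1 and Smoc2 passed 2-fold in the high class alone, Tnc in the other cells alone and Tgfbi in neither. In the other cells Tnc had only 39 WT reads.

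Matricellular proteins are secreted into the matrix but do little of its mechanical work. They bind collagen, growth factors and integrins, and so tune how fibrils assemble and how cells sense the matrix. Many are abundant in growing or healing tissue, and periostin and tenascin C are well known in tendon, periosteum and other loaded connective tissue.

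The cells were taken from tail tendons of C57BL/6 mice aged 4 weeks. One group was WT and the other carried the knockout of Mkx, the gene of the tendon transcription factor Mohawk, and neither had a further treatment. Tendons were digested with collagenase and single cells were captured on a Fluidigm C1 chip, so that each of the 451 samples was 1 cell (227 WT, 224 Mkx-/-). The labels name no animal, culture or chip, so each genotype counted as 1 sample, differences between them could not be checked against replicates, and no test was made.

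Read counts were summed over the cells of a class and genotype and divided by their total reads to give CPM (counts scaled to a total of 1000000 reads). Every ratio is Mkx-/- to WT, and values in brackets are exact 95% intervals that cover counting error only, not the spread between animals. A difference was called where it reached 2-fold among genes with at least 100 reads in the class. The WT cells held 13630536 reads and the Mkx-/- cells 14145394, with 13076 to 335813 reads in a cell. Mkx itself, the targeted gene, stood at 68.1 CPM (61.97 to 74.7) in the WT high class defined below and at 28.9 CPM (25.1 to 33.1) in that of Mkx-/-, and reads occurred in 57.7% and 26.2% of these cells. The Mkx-/- cells thus still held Mkx reads, and the deleted part of the gene is not given in the sources used here.

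Postn lies on chromosome 3 at 54359267 to 54391041, Tnc on chromosome 4 at 63959785 to 64047015 and Sparc on chromosome 11 at 55394159 to 55420080 (all on GRCm38.p6). The 250 bases before a RefSeq start of each are shown because Postn differed most between the classes, Tnc was higher in Mkx-/- cells of both, and Sparc was the member lower in the Mkx-/- cells of the high class and higher in the others. Capitals mark matches on either strand to the letters of the TATA box, TATAAA.
Postn (start 2, chr3:54360857-54361106, plus strand): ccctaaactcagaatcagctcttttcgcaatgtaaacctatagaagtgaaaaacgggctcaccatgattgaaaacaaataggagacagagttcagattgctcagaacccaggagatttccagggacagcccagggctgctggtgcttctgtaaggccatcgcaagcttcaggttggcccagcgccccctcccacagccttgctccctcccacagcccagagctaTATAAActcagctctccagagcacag
Tnc (start 1, chr4:64047016-64047265, minus strand): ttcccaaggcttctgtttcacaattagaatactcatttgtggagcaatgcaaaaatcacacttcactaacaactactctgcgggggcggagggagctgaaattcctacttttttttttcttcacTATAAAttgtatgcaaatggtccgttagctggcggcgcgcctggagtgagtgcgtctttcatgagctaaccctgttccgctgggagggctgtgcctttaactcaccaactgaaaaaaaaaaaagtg
Sparc (chr11:55420081-55420330, minus strand): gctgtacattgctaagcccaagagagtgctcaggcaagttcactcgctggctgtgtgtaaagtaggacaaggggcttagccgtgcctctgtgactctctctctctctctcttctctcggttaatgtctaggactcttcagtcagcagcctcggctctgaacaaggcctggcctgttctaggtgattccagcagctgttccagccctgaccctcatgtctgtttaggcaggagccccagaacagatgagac
In the Postn window the match begins 26 bases before the start, where a TATA box usually lies, and the window of the other Postn start held none. The match in the Tnc window lies further upstream, as does that in the window of the other Tnc start, and the Sparc window held none. Only the exact letters were sought, and the window of that other Tnc start holds tatataag near its end, which was not counted. Of 32851 promoter windows of this length, 12.4% held these letters. CANNTG, the E-box that basic helix-loop-helix factors such as scleraxis bind, was found 3 times in the Tnc and 2 times in the Sparc window (both strands read alike) and in neither of the Postn windows. It occurred in 66.2% of all windows. A match is a run of letters and says nothing of binding.

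Cells were divided by the mean log2(CPM + 1) of Tnmd, which encodes tenomodulin, and Fmod, which encodes fibromodulin, both known from mature tendon cells. A score of 10 or more put 78 WT and 84 Mkx-/- cells in the high class, 34.4% (28.2 to 40.9) and 37.5% (31.1 to 44.2) of each genotype, and left the rest as other cells. The class is a range of a score, but only 4 WT and 3 Mkx-/- cells lay within 0.5 of the dividing value. The median depth was 81693 reads per WT and 72897 per Mkx-/- cell of the high class, and 41921 and 46389 in the other cells. The tenocyte markers that did not set the score (Col1a1, Col1a2, Col11a2, Scx, Thbs4 and Kera) summed to a median of 266905 CPM per WT and 181459 CPM per Mkx-/- cell of the high class, against 16557 and 20395 CPM in the other cells. The progenitor markers Cd44, Thy1, Ly6a, Tppp3, Cd55, Scara5 and Pdgfra had medians of 1333 and 1750 CPM in the high class and of 7503 and 7946 CPM in the others. Chondrocyte markers (Col2a1, Acan, Col9a1 and Sox9) reached a median of 487 and 282 CPM in WT and Mkx-/- cells of the high class and 0 in the other cells. The markers Serpine2, Itm2a, Myoc and Lgals3, the first 3 of which also set a split of the other cells used below, moved with the genotype in both classes, with medians of 881 and 2106 CPM in the high class and 2970 and 4215 CPM in the others.

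The lists of endothelial, mural, immune, glial and red blood cell markers had a median of 0 CPM in every class and genotype, but their reads were unevenly spread. In the high class the endothelial list (Pecam1, Cdh5, Kdr, Emcn and Tek) had 522 WT and 79 Mkx-/- reads, the mural list (Rgs5, Notch3, Kcnj8, Abcc9 and Myh11) 263 and 3, and the immune list (Ptprc, Cd68, Lyz2, Csf1r and Cd52) 550 and 70. The deepest WT cell held 393 of the endothelial and 258 of the mural reads, and another WT cell 388 of the immune ones. In the other cells the counts were 688 and 365 for endothelial, 50 and 5 for mural, and 1047 and 1187 for immune markers. Without the high cells that held at least 2 markers of one of these lists (10 WT and 6 Mkx-/-), the log2 ratio of Postn in the class was 2.06, that of Tnxb was 1.89, and Sparcl1 was no longer called.

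**Figure D1:**
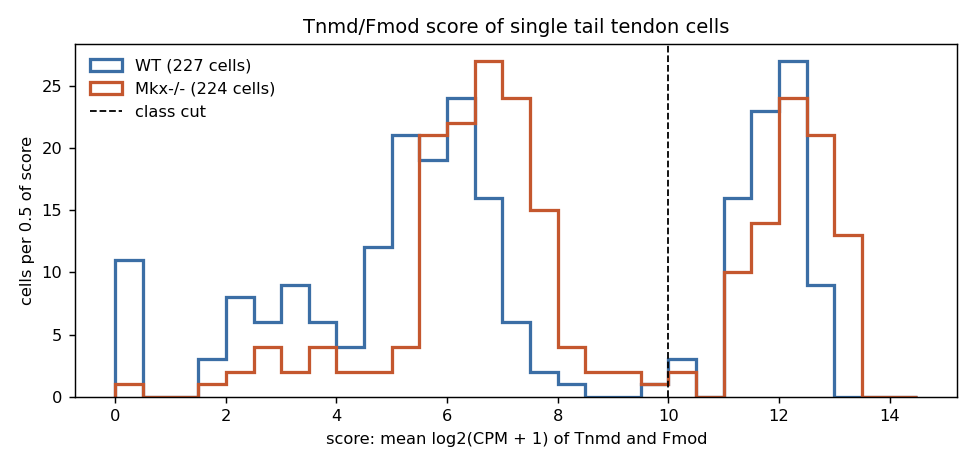
Number of cells (y axis, per 0.5 of score) against the Tnmd/Fmod score (x axis, mean log2(CPM + 1) of both genes) in 227 WT and 224 Mkx-/- cells, with the dividing value of 10 as a dashed line. Few cells lie near the line, and the Mkx-/- cells below it sit at higher scores, with a median of 6.57 against 5.33 in WT.

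The Mkx-/- cells below the dividing value had higher scores than the WT ones. Their Tnmd level was 55.5 CPM in WT against 115.04 CPM in Mkx-/-, and that of Fmod 58.6 against 151.03 CPM. The high class of Mkx-/- also reached further up, with 58 of its 84 cells at a score of 12 or more against 36 of 78 in WT. These shifts move with the genotype, and their part in the differences below was not tested.

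Within the high class 8 of the 10 members were higher and 2 lower in Mkx-/- cells, where 63.6% of all genes were higher. The median of their log2 ratios was 0.67, against 0.21 over the 8368 genes with at least 100 reads there. Postn, Tnxb, Fn1 and Smoc2 passed 2-fold upward, where 13.8% of all genes did so, and Sparcl1 passed it downward, where 6.62% did. With TMM scaling, which sets the libraries level on the bulk of their genes, 7 members were higher, since Nid1 turned negative. The median of all genes in this class then dropped by 0.16 to 0.05, the share of the calls that were upward went from 67.5% to 54.8%, and 3 members in place of 4 were called upward, since Tnxb was then just short of 2-fold. With the reads of Col1a1, Col1a2 and Sparc left out of the total, that share was 53.6%, and Postn and Smoc2 were the 2 members called upward, with Sparcl1 still called downward.

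Among the other cells 5 members were higher and 5 lower, with a median log2 ratio of 0.06 against 0.01 over 9332 genes. Tnc alone passed 2-fold upward, where 7.47% of all genes did. None passed it downward, where 6.65% of all genes did.

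**Figure D2:**
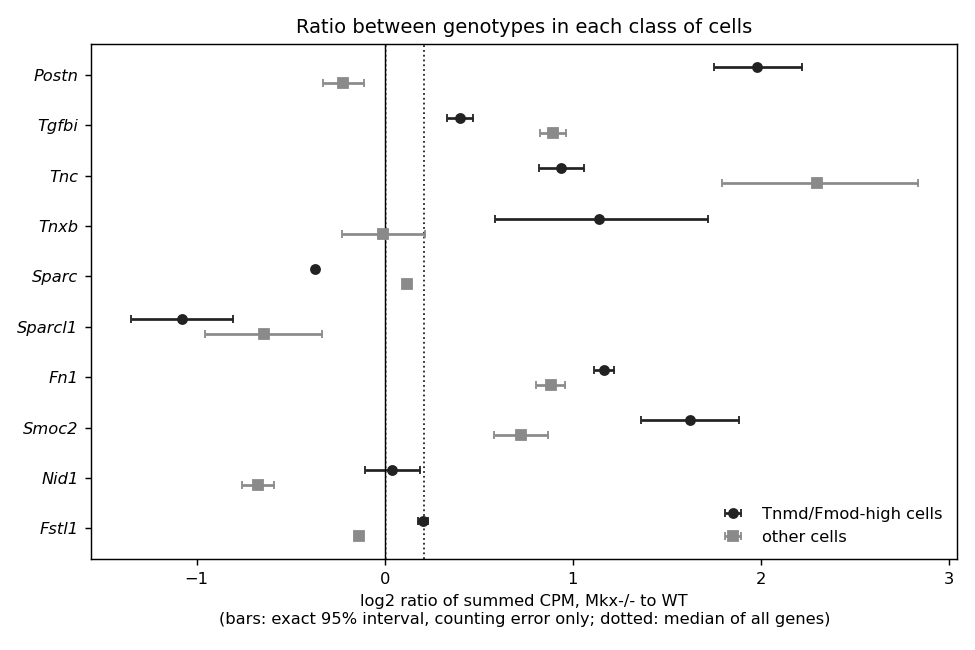
Log2 ratio of summed CPM, Mkx-/- to WT (x axis), of each of the 10 genes (y axis) in high cells (black circles) and other cells (grey squares). Bars are exact 95% intervals for counting error and dotted lines the medians of all genes, 0.21 and 0.01; Postn stands at 1.98 in high and -0.22 in other cells.

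Postn encodes periostin, a fasciclin-domain protein that binds integrins and helps cross-link collagen. The level in the high class was 28.5 CPM (24.5 to 32.8) in WT against 112.2 CPM (104.6 to 120.2) in the knockout, which gives 1.98 (1.75 to 2.22) as the log2 ratio. A WT cell ranged from 0 to 323 CPM and an Mkx-/- cell from 0 to 1902 CPM, with a median of 0 in both. The difference thus lay in a minority of cells. Cells with a Postn read numbered 19 of 78 in WT, or 24.4% (15.3 to 35.4), against 39 of 84 in Mkx-/-, or 46.4% (35.5 to 57.6). After every cell was thinned to 20000 reads the shares were 16.7% and 32.1%. The cell with most Postn reads held 12.8% of them in WT and 11.3% in Mkx-/-, and without those cells the log2 ratio was 2.01.

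Outside the high class the WT level of Postn was 214.1 CPM (203.4 to 225.2) and the Mkx-/- level 183.7 CPM (173.7 to 194.1), with a log2 ratio of -0.22 (-0.33 to -0.11). The cells ranged from 0 to 1904 CPM with a median of 17.9 in WT and from 0 to 1488 CPM with a median of 10.997 in Mkx-/-. The groups overlapped almost wholly. The share of cells with a read was 50.3% (42.04 to 58.6) for WT and 50.7% (42.1 to 59.3) for Mkx-/-. In WT the level in other cells was 752% of that in the high class, and in Mkx-/- it was 163.7%, so the level of periostin mRNA differed less between the classes in the knockout.

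The ratios of Postn in the 2 classes had opposite signs and differed by 2.20 on the log2 scale. Of the 7849 genes with enough reads in both classes, 29.8% were higher in high and lower in other Mkx-/- cells, and 4 of the 10 members were, Postn, Tnxb, Nid1 and Fstl1, although for Tnxb and Nid1 the interval in one class included 0. The reverse held for 16% of all genes and for Sparc among the members. A difference between classes of 2 or more in this direction was found for 3.69% of all genes and for Postn alone among the members. The sign alone was therefore common. The change of Postn was known from earlier results of these data when the gene was chosen, so the share of 3.69% is no support for it. With the class set by collagen genes the difference in Postn was 1.90, short of 2. This difference between classes rests on the same pair of genotype samples and was not tested.

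Within each class Postn was followed along the score. In WT the level lay between 177.4 and 265.5 CPM, in no steady order, in the 4 bins below a score of 8, and was then 44.7 CPM at 10 to 12 (42 cells) and 6.42 CPM at 12 or more (36 cells), where 4 cells held all 18 reads. In Mkx-/- it was 178.5 CPM at 6 to 8 (88 cells), 104.1 CPM at 10 to 12 (26 cells) and 116.5 CPM at 12 or more (58 cells). The WT level was thus lower above the dividing value than below it, and lowest in the highest bin, while that of the Mkx-/- cells stayed above 100 CPM there. Among the other cells Postn and the score had a Spearman rho of 0.09 in WT and 0.15 in Mkx-/-. Across the cells of the high class, Postn and the score had a Spearman rho of -0.32 in 78 WT and -0.17 in 84 Mkx-/- cells, which is given as a description, as are all correlations below, since the cells share their library and differ in depth.

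**Figure D3:**
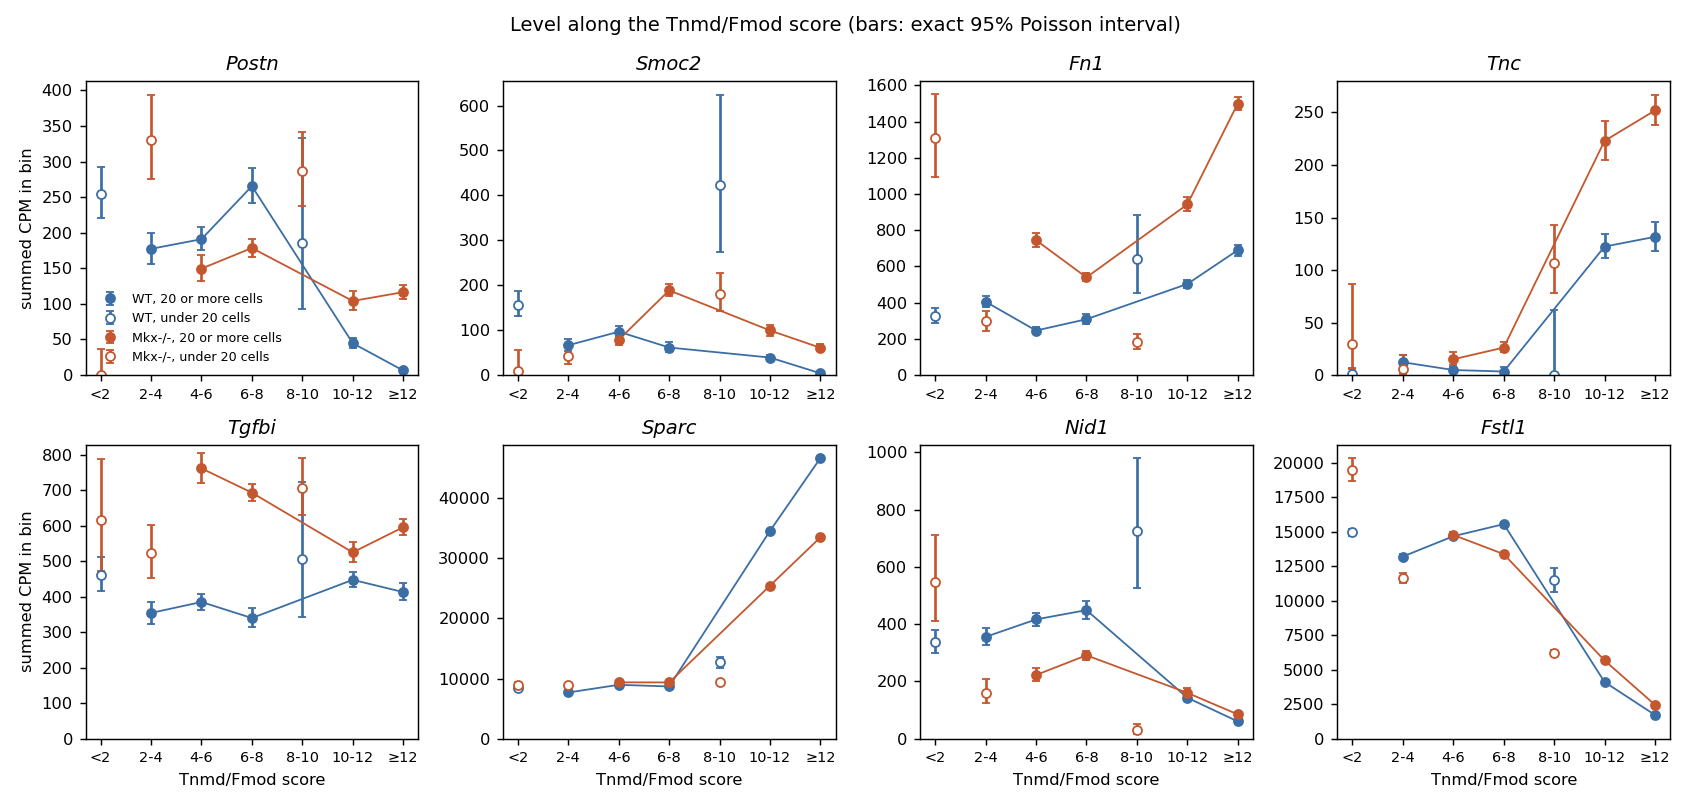
Summed CPM (y axes) of 8 of the genes in bins of the Tnmd/Fmod score (x axes) in WT (blue) and Mkx-/- cells (orange), with exact 95% Poisson intervals; open points are bins of under 20 cells and are not joined. Postn drops to 6.42 CPM in the highest WT bin and stays at 116.5 CPM in Mkx-/-, while Sparc and Tnc stand higher and Fstl1 lower above the dividing value of 10 than in the bins of 20 or more cells below it.

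The other cells were split by whether Cd55 and Scara5 or Serpine2, Itm2a and Myoc had the higher mean. On the Cd55/Scara5 side, 94 WT and 88 Mkx-/- cells, the log2 ratio of Postn was -0.13 (-0.26 to -0.004), and on the Serpine2/Itm2a/Myoc side, 55 and 52 cells, it was -0.38 (-0.59 to -0.18). Periostin was thus slightly lower in Mkx-/- cells on both sides. The genes whose level over all cells was most like that of Postn were Col3a1, Dpt, Lum, Lmo2 and Aspn, with Spearman rho of at least 0.23 in both genotypes over 227 and 224 cells. At most 0.26 in the lower genotype, these are too weak to be read as a finding.

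Tgfbi, on chromosome 13 at 56609586 to 56639359, encodes the other fasciclin-domain protein among the members, which also binds collagen and integrins. High cells of WT stood at 433 CPM (417 to 449) and those of Mkx-/- at 571 CPM (554 to 589), 0.40 (0.33 to 0.47) apart on the log2 scale. Other cells stood at 377 CPM (363 to 391) and 700.5 CPM (681 to 720.5), 0.89 (0.83 to 0.96) apart. Its difference was thus the larger one in the cells where that of Postn was slightly negative. The medians per cell were 329 and 533 CPM in the high class and 309 and 590 CPM in the other cells, with ranges of 55.5 to 1438 CPM in WT and 0 to 2748 CPM in Mkx-/- high cells. Unlike Postn it was found in nearly every cell, in 91.3% to 100% of them in each class and genotype. The log2 ratio was 0.83 on the Cd55/Scara5 side and 1.03 on the Serpine2/Itm2a/Myoc side.

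Tnc encodes tenascin C, a large hexameric protein found at sites of load and repair. High cells held 126.3 CPM (117.8 to 135.1) of it in WT against 242 CPM (231 to 253) in the knockout, with a log2 ratio of 0.94 (0.82 to 1.06). The median per cell went from 61.6 to 230 CPM, and the upper quartile from 207.6 to 340.5 CPM. The Mkx-/- cells were thus higher through most of the range, although 3 WT cells, at up to 884 CPM, lay above the highest Mkx-/- cell at 613 CPM. The share of cells with a read was 71.8% (60.5 to 81.4) for WT and 84.5% (74.99 to 91.5) for Mkx-/-, and 57.7% and 77.4% after thinning.

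Among the other cells Tnc was low, with 5.55 CPM (3.95 to 7.59) for WT against 27.3 CPM (23.6 to 31.5) for Mkx-/-, and the log2 ratio was 2.30 (1.795 to 2.84). Cells with a read made up 10.7% and 23.6%, and the highest cell had 125.3 and 451 CPM. The WT level rests on 39 reads in 16 cells. Other cells had 4.40% of the high-class level in WT and 11.3% in Mkx-/-. For the tenocyte markers that did not set the score, this percentage also differed between the genotypes, for Col11a2 from 1.11% to 3.61%, Scx from 1.38% to 9.01%, Kera from 1.48% to 5.78%, Col1a1 from 6.54% to 11.8% and Col1a2 from 6.76% to 12.7%, while Thbs4 went from 23.6% to 12.6%. Whether these low levels come from the cells themselves or from RNA of other cells was not tested. Over all cells Tnc was most like Cilp2, Pdgfrl and Serpinf1, with a lower rho of 0.60, 0.56 and 0.55, and it also went with the reads per cell (rho of 0.41 in WT and 0.50 in Mkx-/-).

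Tnxb, on chromosome 17 at 34660453 to 34719815, encodes the tenascin whose loss causes a form of Ehlers-Danlos syndrome. It was sparse in the high class, where 39 WT reads gave 5.90 CPM (4.20 to 8.07) and 94 Mkx-/- reads gave 13.01 CPM (10.5 to 15.9), with a log2 ratio of 1.14 (0.59 to 1.72). One Mkx-/- cell held 35.1% and one WT cell 28.2% of these reads, and with every cell weighted equally the ratio was 0.57. Among the other cells the levels were 48.97 CPM (43.9 to 54.4) and 48.7 CPM (43.6 to 54.2), with a ratio of -0.01 (-0.23 to 0.21) whose sign depended on the processing. Cells ranged from 0 to 614 CPM in WT and 0 to 773 CPM in Mkx-/-, with a median of 0. Split by side, the ratio was -0.17 (-0.42 to 0.08) on the Cd55/Scara5 side and 0.96 (0.41 to 1.53) on the Serpine2/Itm2a/Myoc side. Tnxb was most like Fstl1, Fbn1 and Emilin2, at a weak lower rho of 0.32 to 0.34.

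**Figure D4:**
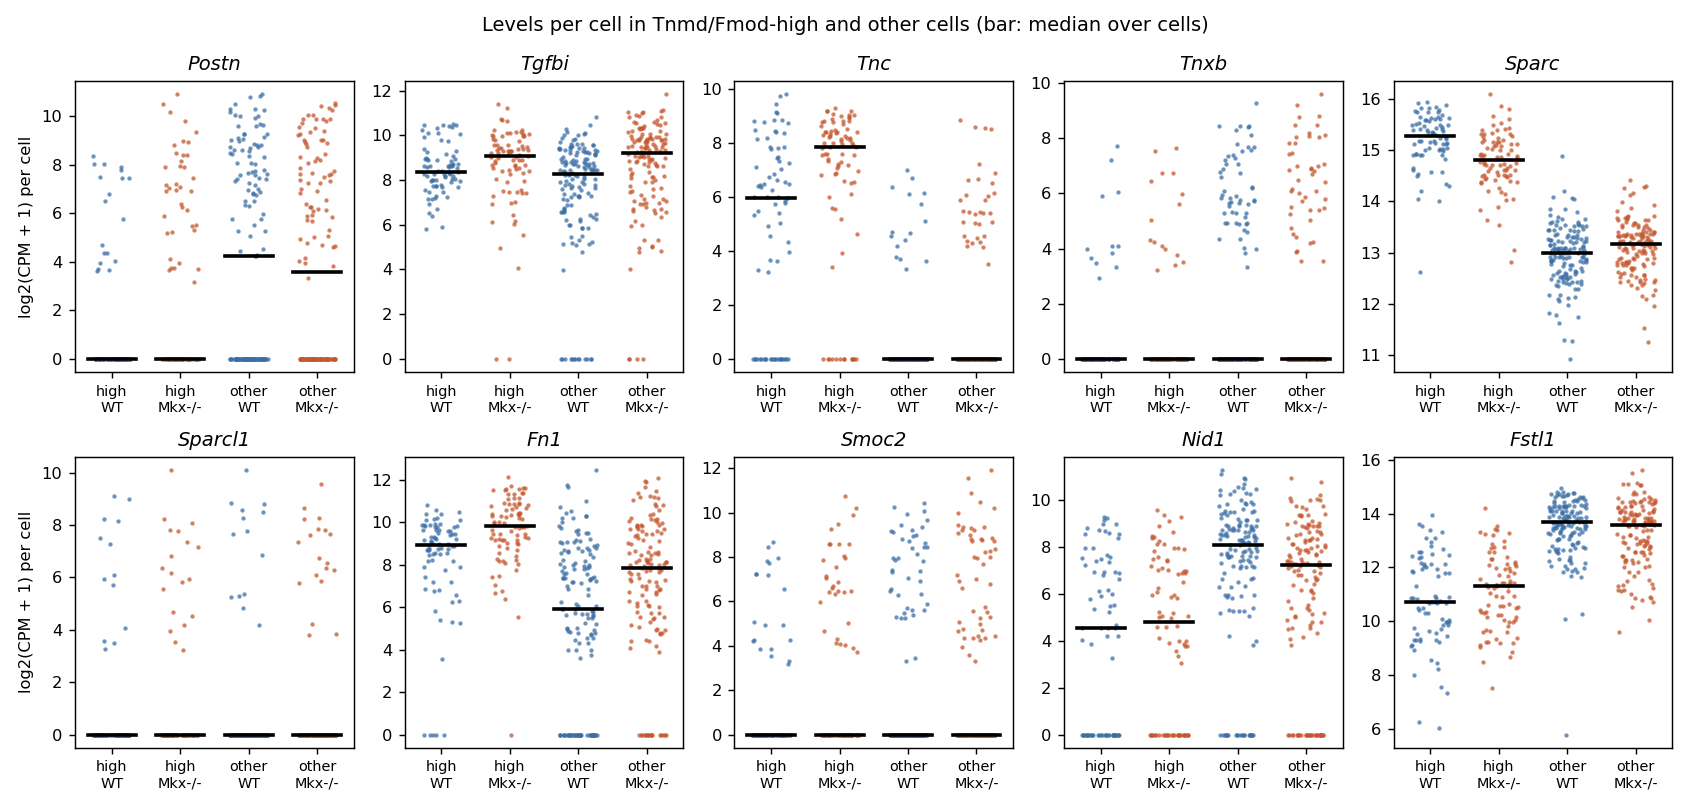
Log2(CPM + 1) per cell (y axes) of the 10 genes in high and other cells of WT (blue) and Mkx-/- (orange), with the median as a black bar. Postn, Tnxb, Sparcl1 and Smoc2 are at 0 in most high cells, while Sparc and Fstl1 were found in every cell.

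Sparc encodes osteonectin, a collagen-binding glycoprotein that is among the most abundant transcripts of tenocytes. It reached 39691 CPM (39539 to 39843) in WT high cells and 30703 CPM (30575 to 30831) in those of the knockout, with a log2 ratio of -0.37 (-0.38 to -0.36). The cells ranged from 6302 to 62883 CPM with a median of 39879 in WT and from 7250 to 69621 CPM with a median of 28819 in Mkx-/-. The ranges overlapped, but the middle of the Mkx-/- cells lay lower. Col1a1 and Col1a2, the chains of type I collagen and the genes most like Sparc over all cells (lower rho of 0.83 and 0.84), had ratios of -0.46 and -0.57 in the same cells. Other cells held 8586 CPM of Sparc in WT against 9329 CPM in Mkx-/-, with a ratio of 0.12 (0.10 to 0.14), and Col1a1 and Col1a2 had ratios of 0.40 and 0.33. Sparc and the type I collagen genes thus had the same sign in each class, negative in the high one and positive in the other.

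Sparcl1, on chromosome 5 at 104079108 to 104114088, encodes hevin, a relative of SPARC. Its reads lay in few cells. The 13 WT high cells with a read gave a level of 50.6 CPM (45.3 to 56.3), and the 19 such Mkx-/- cells gave 23.9 CPM (20.5 to 27.8), with a log2 ratio of -1.08 (-1.35 to -0.81). One WT cell held 55.4% of the 334 WT reads. That cell was the deepest of the series, with 335813 reads and 9924 genes, and it also held reads of 13 markers of other cell types, among them Rgs5, Emcn and Cdh5. Without it the ratio was 0.01, so the 2-fold call rests on that cell. Outside the class the levels were 32.03 CPM (27.98 to 36.5) and 20.5 CPM (17.3 to 24.2), with a ratio of -0.64 (-0.96 to -0.33), and 42.7% of the WT reads came from one cell that also held reads of Csf1r, a macrophage gene. Without the cells that held at least 2 markers of another cell type, that ratio was 0.30.

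Smoc2, on chromosome 17 at 14279490 to 14404790, encodes another calcium-binding relative of SPARC. Its high-class level was 24.1 CPM (20.5 to 28.1) for WT against 74.04 CPM (67.9 to 80.6) for Mkx-/-, and the log2 ratio 1.62 (1.36 to 1.89). The highest cell had 411 CPM in WT and 1738 CPM in Mkx-/-, and the median was 0 in both. As for Postn, the difference lay in a minority of the cells: 25.6% of WT (16.4 to 36.8) and 38.1% of Mkx-/- cells (27.7 to 49.3) had a read. Smoc2 shared the pattern along the score in part. At a score of 12 or more it had 3.92 CPM for WT, from 11 reads in 8 cells, against 60.7 CPM for Mkx-/-. In Mkx-/- cells it had 188.6 CPM at 6 to 8 and 99.3 CPM at 10 to 12. It thus dropped further in the highest bin, where Postn did not. Other cells stood at 90.8 CPM (83.9 to 98.2) and 150.02 CPM (141.03 to 159.4), with a ratio of 0.72 (0.58 to 0.87). Smoc2 was thus higher in Mkx-/- cells of both classes, where Postn was not. Its level was highest on the Serpine2/Itm2a/Myoc side, with 205.1 and 295 CPM in the WT and Mkx-/- cells there, against 37.4 and 66.7 CPM on the Cd55/Scara5 side. One Mkx-/- cell among the others had 3902 CPM and 11.6% of the reads. The genes most like Smoc2 (Eif4e, Rpl35a-ps2 and Igfbp3), Tgfbi (Rps15a-ps3, Vimp and Ckap4) and Sparcl1 (Gm8659, Cdk2ap1 and Col15a1) had a lower rho of at most 0.24, too weak to be read as a finding.

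Fstl1, on chromosome 16 at 37777055 to 37836516, encodes a secreted glycoprotein with a follistatin-like domain that belongs to the SPARC family and is used as a marker of tendon progenitors. It was found in every cell. High cells held 3095 CPM (3052 to 3137) in WT against 3567 CPM (3523 to 3610) in the knockout, with a log2 ratio of 0.20 (0.18 to 0.23), which is close to the median gene of that class. The cells ranged from 64.7 to 15876 CPM with a median of 1689 in WT and from 180.9 to 18653 CPM with a median of 2502 in Mkx-/-. The ratio was 0.02 when the third of each genotype's cells with the highest scores made up the class. Other cells held 14594 and 13275 CPM, with a ratio of -0.14 (-0.15 to -0.12). The lower level lay on the Serpine2/Itm2a/Myoc side, where the ratio was -0.48 (-0.51 to -0.45), while on the Cd55/Scara5 side both genotypes had 17196 CPM and the ratio was 0.00 (-0.01 to 0.01). Fstl1 was most like Fbn1, Cd55 and Mfap5, with a lower rho of 0.84, 0.75 and 0.73; Cd55 also set the split.

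Fn1, on chromosome 1 at 71585473 to 71653280, encodes fibronectin, which assembles into the early fibrils on which collagen and other matrix proteins are laid down. Its level in high cells was 582 CPM (564 to 601) for WT against 1306 CPM (1280 to 1333) for Mkx-/-, and the log2 ratio 1.17 (1.11 to 1.22). Its median per cell went from 489 to 910 CPM, and the highest cell from 1814 to 4562 CPM. Fn1 reads occurred in 93.6% of the WT cells and 98.8% of the Mkx-/- ones, so the difference was spread over most cells, unlike those of Postn and Smoc2. Among other cells it was 308 CPM (295 to 321) and 567 CPM (549 to 585), with a ratio of 0.88 (0.80 to 0.96). There the median went from 59.8 to 229 CPM and the share of cells with a read from 73.2% (65.3 to 80.1) to 87.9% (81.3 to 92.8). At a score of 12 or more the level was 689 CPM for WT against 1499 CPM for Mkx-/-. The genes most like Fn1 were Sparc, Htra1 and Col6a1, at a weak lower rho of 0.36 to 0.37.

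Nid1, on chromosome 13 at 13437602 to 13512275, encodes nidogen 1, which links laminin and type IV collagen in basement membranes. High cells held 107.9 CPM (100.2 to 116.2) in WT against 110.98 CPM (103.4 to 118.9) in the knockout, with a log2 ratio of 0.04 (-0.11 to 0.19), so no difference was detectable at this depth. Outside the class it stood at 406 CPM (391 to 421) and 254 CPM (243 to 267), with a ratio of -0.67 (-0.76 to -0.59). The cells ranged from 0 to 2493 CPM with a median of 271 in WT and from 0 to 1941 CPM with a median of 147.7 in Mkx-/-. The whole distribution thus sat lower in Mkx-/- cells. The share of cells with a read was 85.9% and 79.3%, and 83.7% and 70.4% after thinning. The ratio was -0.68 on the Cd55/Scara5 side and -0.56 on the Serpine2/Itm2a/Myoc side. Nid1 was most like Col3a1, Anxa3 and Ecm1, at a lower rho of 0.36 to 0.41. Within the high class its rho with Fstl1 was 0.63 in WT and 0.33 in Mkx-/- cells.

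A wider list of 50 relatives, matrix partners and receptors of these proteins gave the setting. Of these, 33 had at least 100 reads in the high class and 31 were higher in Mkx-/- cells, where 63.6% of all genes were, with 22 intervals above 0, 1 below it and 10 that included it. The median log2 ratio was 0.36, against 0.21 over all genes, and 8 passed 2-fold upward and 0 downward, where 13.8% and 6.62% of all genes did. The count of 0 rests on the minimum of 100 reads, since Spock2 and Fbln1, both lower in Mkx-/- cells, fell short of it. That of 8 rests on this minimum in part, since Fbln7, Itga9, Hmcn1 and Lama2 had under 100 WT reads. With TMM scaling 23 were higher, 10 lower and 6 past 2-fold. Among the other cells 34 had enough reads, 24 were higher and 10 lower, where 50.5% of all genes were higher, and 3 passed 2-fold upward and 0 downward, where 7.47% and 6.65% did. These counts rest on the minimum as well. Egfl6 and Npnt, with 55 and 57 WT reads, had enough through the Mkx-/- cells. Agrn and Itga8, lower in Mkx-/- cells by more than 2-fold, fell short of it, as did Nid2 and Vtn, which were higher. The other fasciclin-domain genes (Stab1 and Stab2) and the other tenascins (Tnn and Tnr) lacked enough reads in both classes, so Postn, Tgfbi, Tnc and Tnxb were the members of these families that could be compared. Of 6 SPARC relatives, Fst alone had enough reads, in the other cells, at a ratio of 0.44 (-0.03 to 0.92).

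Among the partners past 2-fold in the high class, Col5a1, a fibril-forming collagen chain that helps start type I fibrils, had 353 CPM for WT against 1378 CPM for Mkx-/- and a log2 ratio of 1.96 (1.90 to 2.03), and in the other cells it stood at 0.15 (0.11 to 0.19). Egfl6, which encodes an integrin-binding matrix protein, stood at 117.02 against 355 CPM with a ratio of 1.60 (1.48 to 1.72), and in the other cells at 7.83 against 52.5 CPM with a ratio of 2.74 (2.33 to 3.18). Itga9, a subunit of an integrin that binds tenascin C, had a ratio of 2.69 (2.15 to 3.27) in high cells, from 4.84 to 31.3 CPM, with 31.2% and 26.99% of its reads in 1 cell each. Both the ligand and this receptor subunit were thus higher in Mkx-/- cells of the class, although Itga9 was read in only 10.3% of WT and 17.9% of Mkx-/- cells.

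Fbln7, a fibulin, had 1 read in WT high cells and 30.9 CPM in those of the knockout, with a log2 ratio of 7.67 (5.18 to 12.98) and reads in 19.05% of the Mkx-/- cells. It had enough reads to be counted through the Mkx-/- cells alone, so its place among the 8 is no support for the list. Hmcn1, which encodes hemicentin 1, had a ratio of 1.83 (1.21 to 2.50) from 4.09 and 14.5 CPM, with 51.9% of the WT reads in 1 cell. Outside the high class Npnt, which encodes the integrin ligand nephronectin, had a ratio of 1.53 (1.09 to 1.99), and Col6a3, a type VI collagen chain, had 137.2 against 363 CPM and a ratio of 1.40 (1.29 to 1.51). Of the 9 partners of Nid1 in the basement membrane, 9 were higher in Mkx-/- cells of the high class, and 6 had intervals above 0. With TMM scaling 6 were higher and 3 lower, and 1 in place of 3 was past 2-fold. Lamb1, Hspg2 and Agrn, like Nid1 itself, did not differ detectably, with ratios of 0.00 (-0.27 to 0.28), 0.06 (-0.09 to 0.21) and 0.12 (-0.46 to 0.71). The median of the 9 was 0.62. Lama2, Col4a1 and Col4a2, which were named after their values were seen, passed 2-fold there with ratios of 1.40, 1.10 and 1.01. With TMM scaling Lama2 alone did. For Col4a1 33.5% of the WT reads, and for Col4a2 37.4% of them, lay in 1 cell.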

How the data were processed

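Single cells of tail tendon were profiled in WT and Mkx-/- mice, 1 cell per sample, and each cell took its genotype from the submitters' label. The file the authors deposited holds unnormalised read counts, 1 row per gene and 1 column per cell. Per their methods reads were quality-filtered with AfterQC, trimmed, aligned with bowtie2 to mm9 and counted with featureCounts, whereas the submitters' processing notes list mm10, Bowtie2 and featureCounts. The table holds no coordinates. The versions, the strand used in counting and the handling of reads with several positions are not given in the sources used here, so reads of a gene and of one that overlaps it on the opposite strand cannot be told apart. Counts are of reads, not of unique molecules. Without spliced alignment, reads that cross an exon junction can be lost.

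Positions and promoter sequences are from RefSeq on GRCm38.p6, where 34106 of 48795 symbols were found. Promoters were found for 7 of the 10 members. No transcript of a member had a copy elsewhere of at least 150 bases and 90% identity (minimap2 2.31-r1302 on NCBIM37, GENCODE M1 transcripts). RefSeq genes that overlap Postn, Sparcl1, Smoc2 and Fstl1 are not in the count table, and those in the table that overlap Tnc and Tnxb had 0 reads.

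No cell was removed and 0 columns were left unused. Every cell had at least 1801 genes. Wells holding more than 1 cell had been dropped by the submitters, so doublets were not called here. All columns differed from each other. Counts were summed per class and genotype with Python 3.11.15 and numpy 2.4.6. Intervals (scipy 1.17.1) are exact Poisson for sums, Clopper-Pearson for shares and conditional binomial for ratios. The ratio was checked on simulated counts. With 1 sample per genotype no test was made, and edgeR 4.0.16 (R 4.3.3) was used for TMM factors alone. Thinning to 20000 reads left out 2 WT and 5 Mkx-/- cells, all outside the high class. Likeness is the lower of the Spearman rhos in the 2 genotypes over log2(CPM + 1), among genes seen in at least 20% of cells in both.

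Named genes were the 10 members, Mkx, the score genes and, from the wider list, up to 5 per class and direction by size past 2-fold, together with the 5 genes most like Postn and the 3 most like each other member. The members, lists and classes were chosen with earlier results of these data known. Values of some marker genes are not reported here.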

Additional observations from a re-analysis of the deposited data

Results flagged for a closer look

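Of the members, 3 had intervals on opposite sides of 0 in the 2 classes of cells. The log2 ratio in the high class minus that in the other cells was 2.20 for Postn, -0.49 for Sparc and 0.34 for Fstl1. Both classes of a genotype come from the same unreplicated sample, so none of these differences was tested, and opposite signs were common among all genes (29.8% and 16% in the 2 directions). The difference in Postn was 1.90 to 2.43 in the 12 alternatives.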

How the results depend on the processing

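No paired analysis was possible because the labels give no replicate numbers that the genotypes share. In 12 alternatives Postn, Tgfbi, Tnc, Sparc, Fn1, Smoc2 and Fstl1 kept their direction in both classes. Nid1 changed sign in 8 and Sparcl1 in 5 in the high class, and Tnxb in 5 and Sparcl1 in 1 in the other cells. Postn in the high class was 1.71 with the class set by collagen genes and 2.23 with equal weight per cell. The high-class ratio of Sparcl1 was reversed at 0.30 (equal weight), 0.35 (thinned), 0.54 (without cells holding other-cell markers), 0.62 (cells under 5000 genes) and 0.011 (without the WT cell with most reads, chosen after seeing the data), and in these settings, without leading cells, and at a score of 9, 11 or in the third with highest scores, 0 members were 2-fold lower. The members' median was 0.77 in the high class with cells under 5000 genes, and 0.20 (equal weight) and 0.31 (without marker cells) in the others. Members 2-fold higher in the high class were 2 without Col1a1, Col1a2 and Sparc in the total. In the other cells 2 were higher with the collagen class and 1 lower at 11 or in the third with highest scores, and at 1.5-fold 4 were higher and 2 lower. The cause was not tested beyond the construction of each setting. With at least 20 reads, or a read in both genotypes, the genes 2-fold higher in the high class went from 1152 to 2534 or 2888 and those lower from 554 to 2006 or 2566. In the other cells those higher went from 697 to 1877 or 2359 and those lower from 621 to 1861 or 2251. Of 32 likeness pairs 20 remained after thinning. Of the members' ratios in the high class, that of Tnxb, with 39 WT reads, had the widest counting interval.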

Other observations

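Some genes of the wider list had too few reads for a ratio to be used and were picked out after their values were seen. Spock2, a relative of SPARC, had 74 WT but 7 Mkx-/- reads in the high class, in 14.1% and 2.38% of the cells. Fbln1, which encodes fibulin 1, had 84 and 9 reads there, in 11.5% and 5.95% of the cells. Dip2a, which encodes a proposed receptor of Fstl1, had 3 and 37 reads, 37.8% of the latter in 1 cell. In the other cells Nid2, the relative of Nid1, had 7 WT and 54 Mkx-/- reads, in 1.34% and 7.14% of the cells.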
